A study of Mus musculus with 8 samples.

Results

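The sarcomere and contractile genes are a list of 47 genes for the proteins of the contractile apparatus of striated muscle, out of 21938 protein-coding genes. The genes are given by name. A differential H3K27ac region was attached to a gene in 2 ways. Either its centre lay within 100 kb of an annotated transcription start of the gene, or the gene had the nearest protein-coding start. Together these rules took in 91 of the 11180 differential regions, of which 90 lay within 100 kb and 28 had a listed gene as the nearest start.

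CUT&RUN, in which an antibody directs a nuclease to cut out marked chromatin for sequencing, was run on primary mouse myotubes, the fused muscle cells that satellite cells form in culture. The 4 groups of 2 libraries were Nrip1KO and Ctrl myotubes, each with an antibody to H3K27ac and with control IgG. Satellite cells came from gastrocnemius muscle and were differentiated for 4 days, and the nuclei were pooled and then divided between antibodies. Nrip1 encodes RIP140, a coregulator of nuclear receptors. The methods describe Nrip1 fl/fl mice (C57BL/6J) crossed to MCK-Cre, which acts in heart and skeletal muscle, or to myogenin-Cre, which acts in skeletal muscle, with Cre-negative littermates as controls. The labels do not say which cross gave these cells, nor the age of the mice. Both drivers are switched on as muscle cells differentiate, and how much Nrip1 was lost in these cultures was not measured here.

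Acetylation of histone H3 at lysine 27 marks active promoters and enhancers. In the sarcomere, thick filaments of myosin slide along thin filaments of actin, tropomyosin and troponin, the Z-disc anchors the thin filaments, the M-band links the thick filaments, and titin spans between them. Many of these proteins exist as fast, slow and embryonic isoforms from separate genes, and the mix of isoforms distinguishes fiber types and stages of development.

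The deposited data are 3917 regions whose H3K27ac intensity was increased in KO and 7263 that were decreased, each by 2-fold or greater by the authors' threshold. They carry no fold, no p-value and no value for any library, so the replicates could not be compared and the results below are counts and positions without a test. Regions that passed the threshold are all that is listed. A gene without one may be acetylated equally in both genotypes or not at all. Fewer cells that carry the mark and less of the mark per cell cannot be told apart in bulk cultures. The direction of the regions differed between chromosomes. Of all regions, 97.7% were increased on chromosome 7 and 69.1% on chromosome 10, against 7.53% on chromosome 4 and 7.80% on chromosome 16. Counts are therefore given with and without these 4 chromosomes, and the part of the chromosomes in the results was not tested. The labelled cell type could not be checked by expression. Of the myotube markers, Ckm had 2 increased regions within 100 kb, Ttn 1 in each direction, Mymk 5 and Mymx 2 decreased, and Myog and Des none. Of the markers of progenitors and fibroblasts, Pax7 had 8 decreased regions on chromosome 4, Thy1 had 2 decreased, Myf5 had 1 in each direction and Pdgfra had none. The part of the mix of cells in the results was not tested.

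These sequences are shown because they are from the centres of differential regions within 5 kb of a start of a listed gene, where the data bear most directly on the gene. Each is 240 bases of the mm10 (GRCm38) reference, 5′ to 3′ on the plus strand, and capitals mark a match to a searched motif, here an AP-1 site (TGAGTCA) in Neb and an E-box (CAGCTG) in Mylk2.
Neb, increased, chr2:52339272-52339511: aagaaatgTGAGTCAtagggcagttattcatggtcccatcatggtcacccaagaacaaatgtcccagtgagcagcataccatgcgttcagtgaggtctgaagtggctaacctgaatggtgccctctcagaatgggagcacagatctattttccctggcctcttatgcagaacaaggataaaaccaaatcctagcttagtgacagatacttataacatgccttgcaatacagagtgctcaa
Dmd, increased, chrX:82949759-82949998: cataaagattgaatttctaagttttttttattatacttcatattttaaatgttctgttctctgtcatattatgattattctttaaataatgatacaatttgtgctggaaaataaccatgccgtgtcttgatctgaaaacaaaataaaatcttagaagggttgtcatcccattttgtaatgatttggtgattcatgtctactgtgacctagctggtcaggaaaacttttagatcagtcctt
Actn2, decreased, chr13:12343260-12343499: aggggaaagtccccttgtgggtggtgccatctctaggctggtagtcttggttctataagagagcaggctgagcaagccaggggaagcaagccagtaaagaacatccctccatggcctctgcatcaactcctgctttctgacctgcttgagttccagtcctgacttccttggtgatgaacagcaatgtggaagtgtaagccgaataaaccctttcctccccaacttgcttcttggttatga
Myl4, decreased, chr11:104572534-104572773: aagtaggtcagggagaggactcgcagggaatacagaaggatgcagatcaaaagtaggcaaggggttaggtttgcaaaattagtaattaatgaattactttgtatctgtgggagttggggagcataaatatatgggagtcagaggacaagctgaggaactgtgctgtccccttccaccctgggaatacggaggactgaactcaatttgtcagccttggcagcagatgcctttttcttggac
Dmd, increased, chrX:82952209-82952448: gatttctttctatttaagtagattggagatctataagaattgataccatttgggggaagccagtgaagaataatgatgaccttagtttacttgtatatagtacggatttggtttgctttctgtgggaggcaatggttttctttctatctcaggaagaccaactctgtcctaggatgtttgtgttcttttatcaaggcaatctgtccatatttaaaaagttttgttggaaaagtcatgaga
Mylk2, decreased, chr2:152907786-152908025: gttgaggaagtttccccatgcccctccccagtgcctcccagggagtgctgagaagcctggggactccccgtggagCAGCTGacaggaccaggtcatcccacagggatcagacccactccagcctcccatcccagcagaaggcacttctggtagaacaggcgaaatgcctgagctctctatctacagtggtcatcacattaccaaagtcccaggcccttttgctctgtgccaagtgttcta

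Differential H3K27ac regions lay near most of the sarcomere genes, and in both directions. An increased region lay within 100 kb of 24 of the 47 genes (51.1%), against 24.1% of all protein-coding genes. A decreased region lay within 100 kb of 26 of them (55.3%), against 42.7% of all. Both kinds were found at 11 genes (23.4%, against 8.86% of all). Increased regions alone were found at 13 of the 47, against 3343 of the 21938 protein-coding genes. Decreased regions alone were found at 15, against 7420, a share near that of all genes. The median distance from a listed gene to the closest increased region was 98.6 kb, against 337 kb over all protein-coding genes, and to the closest decreased region 53.1 kb against 138 kb. The background includes genes that are silent in muscle. The listed genes also lay among more genes, with a median of 4 other protein-coding genes within 100 kb against 3, and had a median of 5 annotated starts against 3. With only the 5′ end of each gene counted, the shares were 51.1% against 22.3% for increased and 55.3% against 40.3% for decreased regions.

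**Figure D1:**
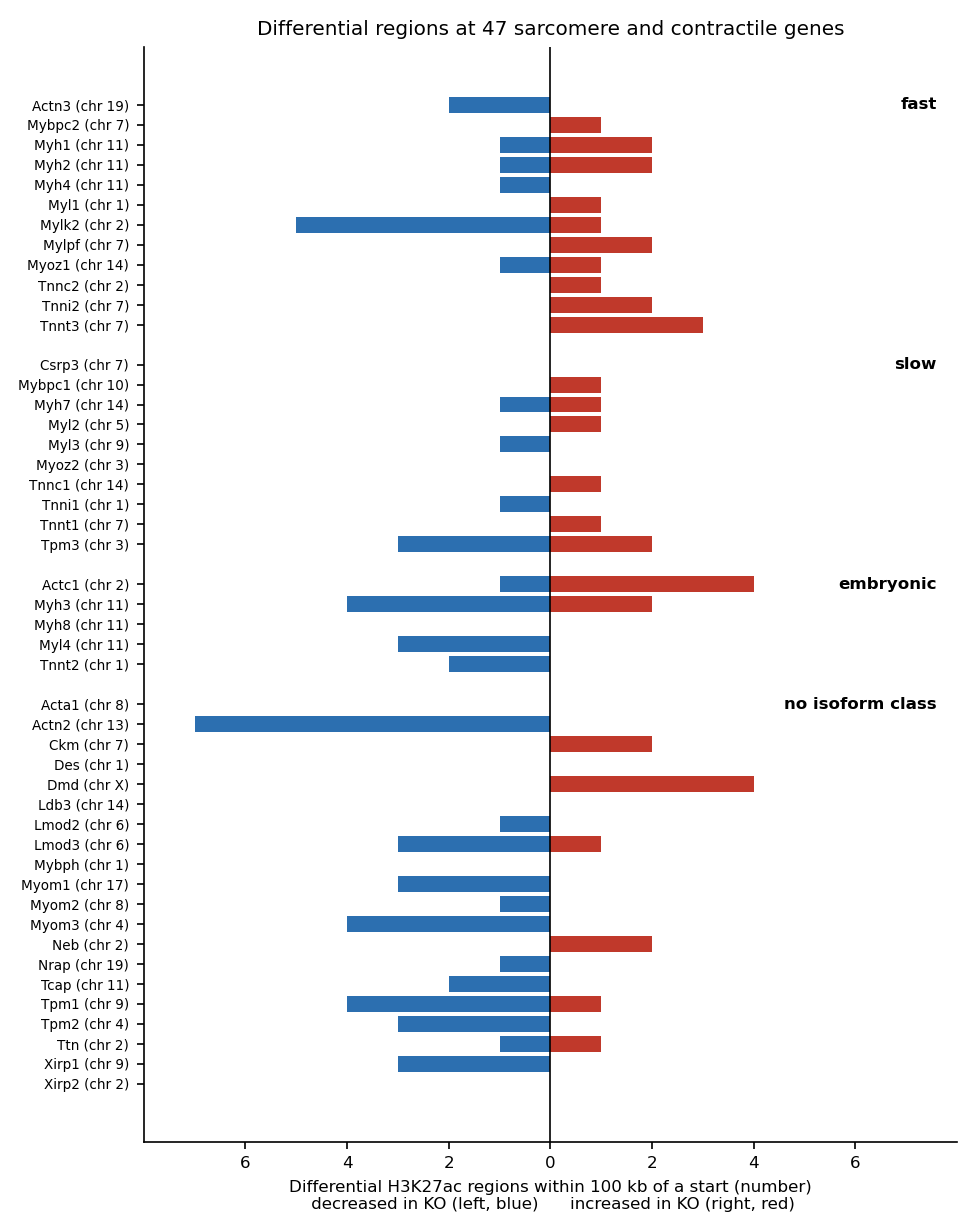
Number of differential H3K27ac regions within 100 kb of a start of each of the 47 genes (vertical axis, by isoform class, with the chromosome), increased in KO to the right (red) and decreased to the left (blue). Actn2 had 7 decreased regions, Dmd and Actc1 had 4 increased regions each, and 8 genes had none.

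The 8 genes without a region included 4 of the 10 Z-disc genes and none of the M-band and titin genes. They were Acta1, the main skeletal actin, Myh8, the perinatal myosin heavy chain, Mybph, a myosin-binding protein, Des, the muscle intermediate filament desmin, and the Z-disc genes Ldb3, Myoz2, Csrp3 and Xirp2. This was 17.0% of the list, against 42.1% of all protein-coding genes. The share of Z-disc genes without a region, 40.0%, was near that of all protein-coding genes.

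Most of the regions near these genes were not closest to them. Of the 90 regions within 100 kb, 27 (30.0%) had the listed gene as the nearest protein-coding start, and the other 63 lay nearer to another gene. By the nearest start, 13 increased regions belonged to 9 listed genes (19.1%, against 10.6% of all protein-coding genes) and 15 decreased regions to 10 listed genes (21.3%, against 17.8%). The increased region of Myom2 lay furthest, 422998 bp from its closest start, and is the only region counted here that is beyond 100 kb. Of the 90 regions, 34 were increased and 56 decreased, which is 37.8% increased (95% Wilson interval 28.5 to 48.1%, counting error only). Over the windows of all protein-coding genes, 32.5% of regions were increased.

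Without chromosomes 4, 7, 10 and 16, 17 of 37 genes (45.9%, against 21.2% of all protein-coding genes) had an increased region and 24 (64.9%, against 44.7%) a decreased region, and 32.9% of 73 regions were increased, against 27.8% over the windows of all protein-coding genes. Chromosome 7 carries 7 of the genes, namely Mylpf, Tnnt1, Tnnt3, Tnni2, Mybpc2, Ckm and Csrp3. All but Csrp3 had an increased region and none had a decreased region. On that chromosome 56.2% of all protein-coding genes had an increased region within 100 kb and 3.51% a decreased one. The 2 genes of chromosome 4, Tpm2 and Myom3, had 7 decreased and 0 increased regions between them, on a chromosome where 66.2% of protein-coding genes had a decreased region. On chromosome 2, which holds 6 of the genes, 9 of 16 regions at listed genes (56.2%) were increased, against 24.4% of all regions of that chromosome. Of these 9, 4 were at Actc1. Other chromosomes went the other way. Chromosome 9 had 1 increased and 8 decreased regions at 3 listed genes (11.1% increased, against 27.3%). Chromosome 13 had 0 and 7 at 1 listed gene, against 39.9%.

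The fast isoform genes had the largest share with an increased region within 100 kb among the classes, and 4 of these genes are on chromosome 7. Of 12 fast genes, 10 (83.3%) had an increased and 6 a decreased region within 100 kb, beside 24.1% and 42.7% of all protein-coding genes. The regions numbered 12 increased and 9 decreased, or 57.1% increased (95% Wilson interval 36.5 to 75.5%). Of these 9 decreased regions, 5 were at Mylk2 alone. Without the 4 chromosomes, 8 fast genes were left, of which 6 had an increased and 6 a decreased region, beside 21.2% and 44.7% of all protein-coding genes there. Of the regions at these 8 genes 40.0% were increased, beside 27.8% over all genes. Of 10 slow genes, 6 had an increased and 4 a decreased region, the latter a share near that of all genes. Their regions numbered 7 increased and 6 decreased, or 53.8% increased (95% Wilson interval 29.1 to 76.8%). Outside the 4 chromosomes 7 slow genes were left, 4 of them with an increased and 4 with a decreased region. Of the 11 regions at these 7 genes 45.5% were increased, a higher share than the 40.0% at the fast genes there. Of 5 embryonic genes, none of them on the 4 chromosomes, 2 had an increased and 4 a decreased region. Their regions numbered 6 increased and 10 decreased, or 37.5% increased. The 20 genes with no isoform class had 11 increased regions among 44 regions in all (95% Wilson interval 14.6 to 39.4% increased). Over the windows of all protein-coding genes the share was 32.5%. Outside the 4 chromosomes 17 genes with no isoform class were left. Of their 35 regions 25.7% were increased, near the 27.8% over all genes. Neighbouring genes share regions, so the genes of a class are not independent, and the differences between classes were not tested.

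**Figure D2:**
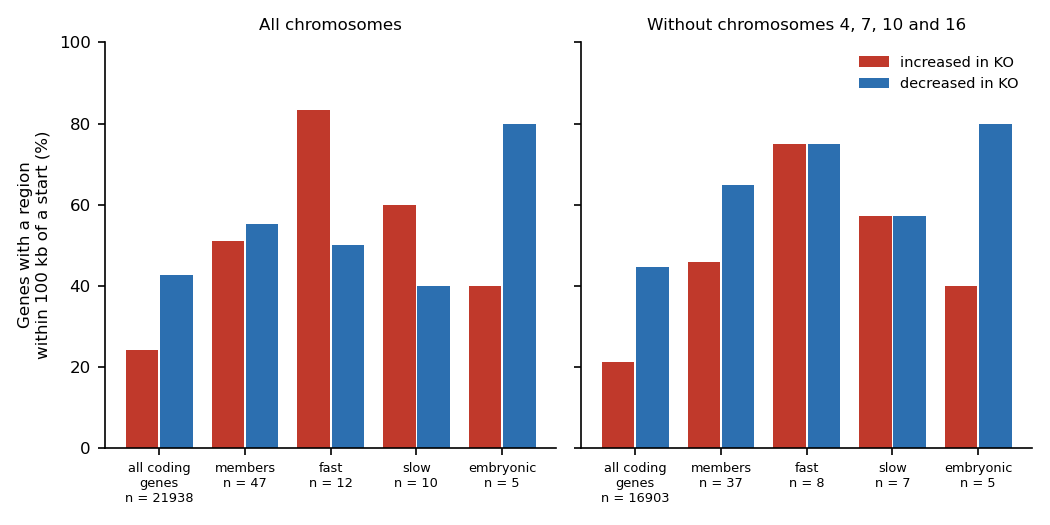
Percent of genes with an increased (red) or decreased (blue) region within 100 kb of a start, for all protein-coding genes, the listed genes and the isoform classes, on all chromosomes (left) and without chromosomes 4, 7, 10 and 16 (right). The fast class stood at 83.3% increased on the left, where 6 of its 12 genes had a decreased region, and at 75.0% for both on the right.

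The structural groups were set beside the same shares of all protein-coding genes, 24.1% with an increased and 42.7% with a decreased region. Of the regions in the windows of all protein-coding genes, 32.5% were increased. No difference between the groups was tested. Of the 15 thick filament genes, 10 (66.7%) had an increased and 8 (53.3%) a decreased region, with 10 increased and 14 decreased regions in all. The 15 thin filament genes gave the same counts of genes, with 16 increased and 17 decreased regions. Of the 10 Z-disc genes, 1 had an increased and 6 a decreased region, with 1 increased and 16 decreased regions in all (5.88% increased). Of these 16 decreased regions, 7 were at Actn2 alone. All 4 M-band and titin genes had a decreased region and 1 had an increased one, with 1 increased and 9 decreased regions. Of Dmd, Ckm and Des, which serve the membrane link, energy supply and cytoskeleton, the former pair had increased regions alone. Without the 4 chromosomes the shares of all protein-coding genes were 21.2% and 44.7%. There, 7 of 12 thick filament genes had an increased and 8 a decreased region, and 6 of their 20 regions were increased, a share near the 27.8% over all genes. Of 11 thin filament genes there, 7 had an increased and 7 a decreased region, and 46.2% of their regions were increased. Of 9 Z-disc genes, 1 had an increased and 6 a decreased region, and of 3 M-band and titin genes 1 and 3.

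Among the thick filament genes, the skeletal myosin heavy chains lie in a cluster on chromosome 11, and differential regions were found at its Myh3 end. Myh3 encodes the embryonic form, and Myh2, Myh1 and Myh4 encode the fast forms of type 2A, 2X and 2B fibers. A pair of increased regions lay between Myh3 and Myh2. The wider, at chr11:67104065-67107744, was 3680 bp across, was joined from 3 peaks, and its centre lay 27604 bp downstream of the Myh3 start and 65123 bp upstream of that of Myh2. The other, at chr11:67124720-67125958, lay 45688 bp upstream of Myh2, and its closest annotated gene of any kind was 2310065F04Rik. A decreased region at chr11:67146372-67147556 was nearer to Myh2, 24063 bp upstream of its start. These 3 regions also lay within 100 kb of Myh1, and the decreased one within 100 kb of Myh4. The other 3 decreased regions within 100 kb of Myh3 lay on its far side, 17510, 51283 and 70030 bp upstream. The closest was in Sco1 and the next in Tmem220. The furthest was in no protein-coding gene, 16884 bp from a start of Tmem220. On chromosome 11 as a whole 16.2% of regions were increased.

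**Figure D3:**
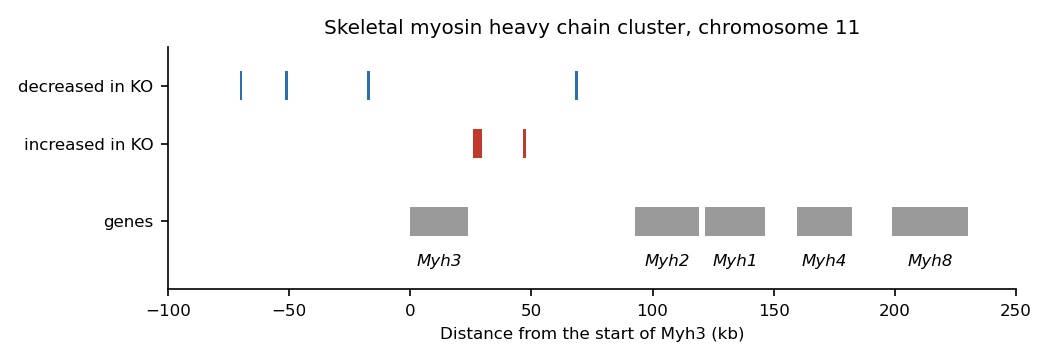
Map of the skeletal myosin heavy chain cluster in kb from the start of Myh3, with genes in grey, increased regions in red and decreased regions in blue (regions under 1 kb are drawn 1 kb wide). The 2 increased regions lay 25.8 to 29.4 kb and 46.4 to 47.7 kb from the Myh3 start, and no region lay from Myh2 to Myh8.

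The slow myosin heavy chain gene Myh7 had 1 region in each direction, neither of them closest to it. The increased region was 97269 bp upstream and at the start of Zfhx2, and the decreased region 32650 bp downstream and nearest to Cmtm5. Among the myosin light chains, Mylpf, the fast regulatory light chain, had an increased region of 1247 bp inside the gene, 1074 bp from a start. A further increased region, 18712 bp downstream, was at the start of Sept1. Myl1, the fast essential light chain, had 1 increased region 30628 bp upstream and no nearer protein-coding gene. Myl4, the embryonic and atrial light chain, had 3 decreased regions. The closest was in an intron, 2793 bp upstream of an annotated start that is not the 5′ end of the gene, and the other 2 were in Itgb3. For the slow light chains, Myl2 had an increased region 41669 bp downstream, nearest to Ccdc63, and Myl3 a decreased region 32526 bp upstream, at the start of Ccdc12.

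The largest decreased region at a thick filament gene lay at Mylk2, the skeletal myosin light chain kinase. It spanned 8044 bp (chr2:152903884-152911927), was joined from 3 peaks, covered the annotated start of the gene and ranked 21 by width among the 7262 decreased regions placed on chromosomes. No other region considered here covered a start of its listed gene. Another 4 decreased regions lay 12384 to 20853 bp downstream of that start and nearest to Foxs1, and 1 increased region 98633 bp downstream was in Pdrg1. Mybpc1 and Mybpc2, the genes of myosin-binding protein C, each had 1 increased region closer to another gene. That of Mybpc1, the slow form, was 54229 bp upstream, and that of Mybpc2, the fast form, was 30676 bp downstream.

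Among the thin filament genes, only Neb (nebulin), the tropomyosin genes Tpm1 and Tpm3, and Lmod3 were the nearest start of a region. The regions at the troponins were all nearest to other genes. Neb, whose giant product runs along the thin filament, had 2 increased and 0 decreased regions, both inside the gene. Their centres lay 593 bp and 17097 bp upstream of annotated internal starts, and 39083 and 105221 bp from the 5′ end, at chr2:52338973-52339809 and chr2:52272606-52273901.

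The tropomyosins, which regulate access of myosin to actin, differed by gene. Tpm3, the slow form, had an increased region in an intron 4760 bp from an internal start and a decreased region of 2207 bp that was 3803 bp upstream of the 5′ end (chr3:90067743-90069949). A further increased region was at Ubap2l and another 2 decreased regions lay upstream. Tpm1 had 4 decreased regions, of which 3 had no nearer gene, at 7669 bp inside the gene and 41523 and 75560 bp upstream, and 1 increased region near Lactb. Tpm2 had 3 decreased regions, all nearer to Tln1 or Cd72.

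The troponins, the calcium switch of the thin filament, had 7 genes on the list and none of them was the nearest start of a region. The fast pair Tnnt3 and Tnni2 on chromosome 7 shared 2 increased regions in Lsp1, 18607 and 21819 bp downstream of a Tnni2 start, and Tnnt3 had a further one of 4385 bp near Igf2. The slow Tnnt1 had 1 increased region 6917 bp away, at the start of Ppp1r12c. The troponin C genes had 1 increased region each, Tnnc1 (slow) 11812 bp upstream in Nisch and Tnnc2 (fast) 21063 bp downstream in Dnttip1. On chromosome 1, Tnnt2, the cardiac and embryonic troponin T, and Tnni1, the slow troponin I, shared 1 decreased region (chr1:135830212-135832173). It was 5162 bp upstream of Tnnt2 and 658 bp from a start of Lad1. Tnnt2 had another decreased region 93540 bp downstream.

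Actc1, the cardiac actin also made in developing muscle, had 4 increased regions 63777 to 93438 bp away and 1 decreased region 46311 bp upstream, none of them closest to it. The leiomodins, which nucleate actin filaments, both had decreased regions. Lmod3 had an increased region of 2783 bp 13470 bp upstream (chr6:97264838-97267620), with 3 decreased regions further upstream that were nearest to Frmd4b. Lmod2 had 1 decreased region, 82599 bp upstream at the start of Iqub.

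**Figure D4:**
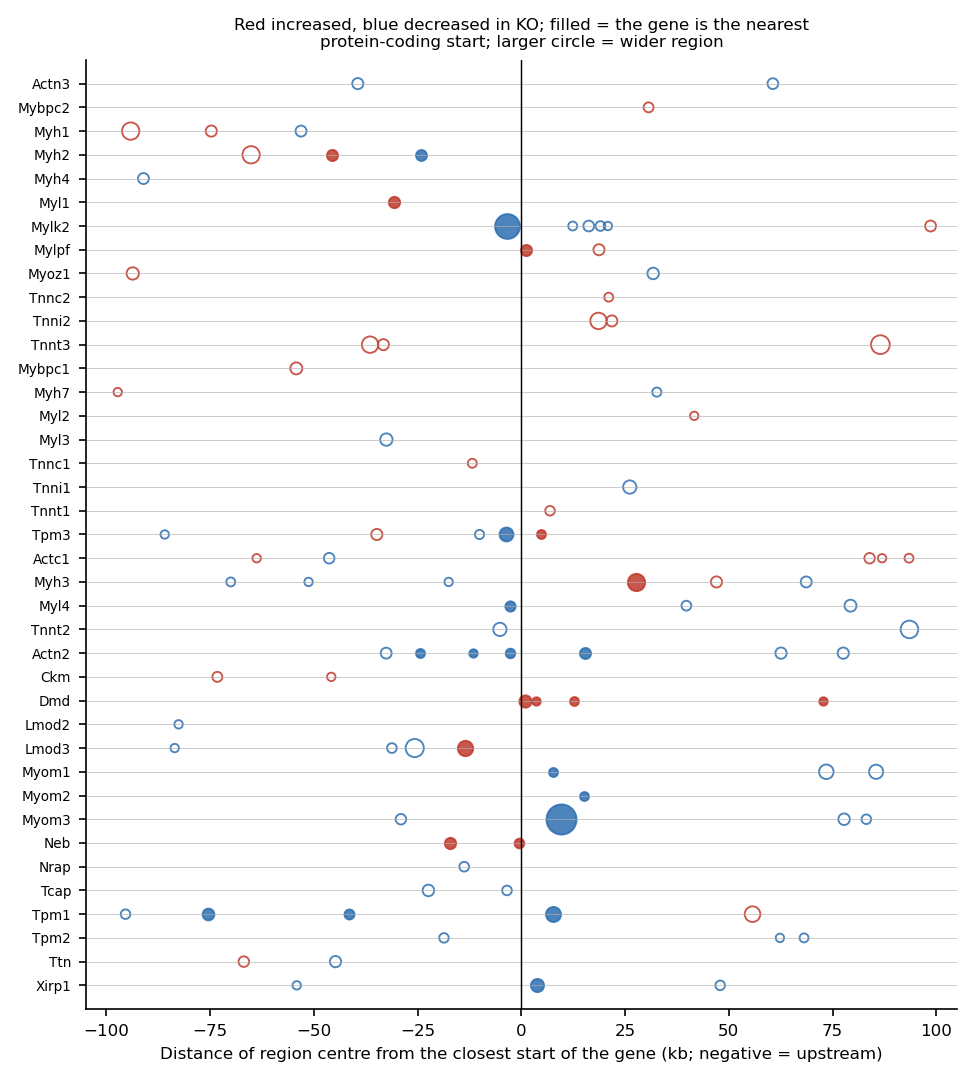
Distance in kb from each region's centre to the closest start of the gene (horizontal axis, upstream negative), for the 39 genes with a region within 100 kb, red increased and blue decreased in KO. Circle area grows with region width, and filled circles have the gene as the nearest protein-coding start, as for the 4 increased regions of Dmd and 4 of the 7 decreased regions of Actn2.

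At the Z-disc, Actn2, the alpha-actinin that crosslinks actin in cardiac and skeletal muscle, had more decreased regions than any other listed gene. Of its 7 decreased regions, 4 had it as the nearest gene. Of these, 1 was 2619 bp upstream of the start (chr13:12342984-12343774), another was 24530 bp upstream, and the remaining 2 were in introns. No increased region lay within 100 kb, on a chromosome with 39.9% increased regions. Actn3, the fast-fiber alpha-actinin, had 2 decreased regions, 39408 bp upstream in Dpp3 and 60623 bp downstream at a start of Gm21992. Xirp1, an actin-binding repeat protein, had 3 decreased regions, the nearest of 1919 bp over the end of the gene and 3885 bp from a start. Tcap, which caps titin at the Z-disc, had 2 decreased regions 3453 and 22395 bp upstream, both in Stard3. Nrap, a nebulin-related anchoring protein, had 1 decreased region within 100 kb. Myoz1, the fast-fiber calsarcin, had 1 increased region 93652 bp upstream in Camk2g and 1 decreased region 31776 bp downstream at the start of Usp54.

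The M-band myomesins, which crosslink myosin, each had a decreased region inside the gene. That of Myom3 was the widest of all 91 regions. It ran for 12064 bp from chr4:135763322-135775385 in the body of the gene, was joined from 3 peaks and ranked 7 by width among decreased regions. Myom3 is on chromosome 4, and had 3 further decreased regions near other genes. Myom1 had a decreased region of 643 bp 7616 bp from an internal start, and another 2 decreased regions at Lpin2. Myom2 had a decreased region of 627 bp at 15174 bp from an internal start. Ttn, the gene of titin, had 1 decreased region 44781 bp upstream and 1 increased region 66881 bp upstream, both in Ccdc141.

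Dmd, which encodes dystrophin, the link from the actin cytoskeleton to the membrane, had 4 increased and 0 decreased regions, all inside the gene and with no nearer gene. Of these, 3 lay behind the 5′ end, at 975, 3425 and 12609 bp from the closest start. The first, chrX:82949074-82950682, spanned 1609 bp and was promoter-proximal, that is, within 1 kb of a start. Its GC content was 30.2%, the lowest of the 91 regions, and the next 2 had 32.3% each. The last was in an intron 72821 bp from an internal start. On chromosome X 53.8% of all regions were increased. Ckm, the muscle creatine kinase, had 2 increased regions 45810 and 73253 bp upstream, nearest to Cd3eap and Ercc1, on chromosome 7.

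In width and base composition the regions at sarcomere genes can be read beside the whole lists. The median width within 100 kb was 1054 bp for increased regions, against 777 bp for all increased regions, and 954 bp for decreased regions, against 864 bp. Mean GC content was 45.3 ± 7.28% (SD, 34 regions) for increased and 49.3 ± 5.19% (SD, 56 regions) for decreased regions, so that increased regions had the lower GC content, as in the whole lists (43.5 ± 5.56% and 48.0 ± 5.28%). The distributions overlapped widely. Promoter-proximal regions made up 17.6% of the increased and 14.3% of the decreased regions, against 15.2% and 11.2% of all.

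**Figure D5:**
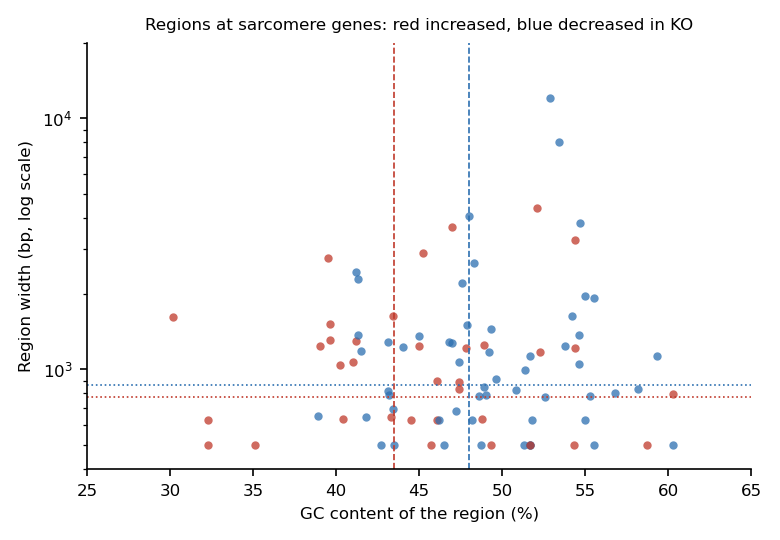
Width (bp, log scale) against GC content (%) of the 91 regions at the listed genes, red increased and blue decreased in KO, with dashed lines at the mean GC content and dotted lines at the median width of all regions of the same direction. The 2 widest points are the decreased regions at Myom3 (12064 bp) and Mylk2 (8044 bp), and the point of lowest GC content is the increased region in Dmd (30.2%).

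Motifs were searched on both strands in the central 501 bp of every region, and a match is a description of letters, not of a bound site. The E-box CAGCTG, the form read by myogenic factors such as MyoD and myogenin, was found in 38.2% of the 34 increased and 28.6% of the 56 decreased regions within 100 kb. Over all regions the order was the other way, with 28.9% of increased and 38.0% of decreased regions. The AP-1 site (TGACTCA or TGAGTCA) was in 8.82% of increased and 19.6% of decreased regions, against 16.6% and 12.8% of all. These shares stand for few regions, 13 and 16 with an E-box and 3 and 11 with an AP-1 site. The TEAD site CATTCC was in 12 increased and 14 decreased regions (all 30.8% and 27.3%). The MEF2 consensus was in 1 increased and 4 decreased regions (all 8.50% and 3.40%), and the serum response factor CArG box in 0 and 2 (all 2.71% and 2.41%).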

How the data were processed

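The authors aligned paired reads to mm10 with BWA-MEM2 (2.2.1), called broad H3K27ac peaks with HOMER (4.11) and kept regions whose intensity differed by 2-fold or greater. How replicates and IgG libraries entered the calls is not given in the sources used here. The labels name an Abcam antibody and the methods one from Cell Signaling Technology, a difference that the sources do not resolve. The 2 deposited lists hold intervals, names that give the number of peaks joined, and constant score and strand columns, which were not used. Depth per library is unknown. Whether replicates were separate cultures or animals is not stated.

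Intervals were counted from 1, and the single region outside the assembled chromosomes was used in the totals alone. Starts came from GENCODE M21 (55413 genes on chromosomes 1 to 19, X and Y) and sequence from GRCm38. Distances run from a region's centre to the closest annotated start of a gene. Counts and intervals were computed in Python 3.11.15 with SciPy 1.17.1, NumPy 2.4.6 and pysam 0.24.0, plots with matplotlib 3.10.9, and the assignment was tested on simulated positions. Every gene with a region is named, and sequences are 6 of the first 7 of 10 within 5 kb of a start, nearest first, outside UTRs, and the other is not reported here. Motifs were searched in the central 501 bp in place of the whole region, since width differs between regions. The genes, isoform classes and further lists were chosen with earlier results of these data known. Alternatives changed the window, the starts, the competing genes, the width and the chromosomes.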

Additional observations from a re-analysis of the deposited data

How the results depend on the processing

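Of 75 values recomputed under 9 alternatives, 65 stayed within 1.5 times the reported count or within its interval, and 10 moved further. The number of increased regions with a listed gene as the nearest start, 13, was 7 among regions of 1 kb or wider and 8 where all annotated genes competed. The 15 decreased regions became 8 among regions of 1 kb or wider, 24 where only the 5′ end of each gene was used and 23 where only starts of protein-coding transcripts were used, an alternative chosen after seeing the data. Fast genes with an increased region fell from 10 to 6 without chromosomes 4, 7, 10 and 16, which removes 4 of the genes. Slow genes with an increased region numbered 2 in place of 6 among regions of 1 kb or wider. Under that width limit the share of all protein-coding genes fell as well, from 24.1% to 9.35%. Slow genes with a decreased region numbered 9 in place of 4 within 250 kb. Embryonic genes with an increased region numbered 1 within 50 kb and 4 within 250 kb, in place of 2. The share of increased regions ran from 30.9 to 40.0%. No paired analysis was possible because the files carry no value per library, and for the same reason no library could be left out. The number of listed genes with an increased region within 50 kb was 16 (34.0%, against 15.6% of all protein-coding genes) and within 250 kb 31 (66.0%, against 42.2%). For decreased regions it was 23 (48.9%, against 29.8%) and 37 (78.7%, against 61.9%). Among regions of 1 kb or wider, 36.2% of listed genes had an increased region within 100 kb, against 9.35% of all. For decreased regions of that width the shares were 44.7% and 24.8%. Of all increased regions 33.4% were 1 kb or wider, and of all decreased regions 41.5%. Depth, which is unknown, limits which regions could pass the threshold.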

Other observations

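A further 40 genes of the same structures, not on the list of 47, were looked up in the same way. An increased region lay within 100 kb of 14 of them (35.0%, against 24.1% of all protein-coding genes). A decreased region lay within 100 kb of 19 (47.5%, against 42.7%). There were 16 increased and 45 decreased regions, or 26.2% increased, against 32.5% over the windows of all protein-coding genes. Without chromosomes 4, 7, 10 and 16, 13 of 42 regions (31.0%) were increased, against 27.8%. Of the 40 further genes, 5 had a region within 5 kb of a start. Tmod4, a skeletal tropomodulin that caps the pointed ends of thin filaments, had a decreased region 656 bp from a start. Cryab, a small heat shock protein that binds desmin, had one at 2711 bp. Myh6, a cardiac myosin heavy chain, had a decreased region 3633 bp from an internal start. That region lay beyond the 3′ end of Myh6, and is the decreased region given above for Myh7, nearest to Cmtm5. Unc45b, a chaperone for myosin, had an increased region at 2947 bp. Tmod1, the tropomodulin of heart and slow muscle, had a decreased region at 4056 bp and 10 decreased regions within 100 kb, on chromosome 4.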
